A study of Homo sapiens with 6 samples.

Results

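BEST1, MMACHC and MRNIP are human protein-coding genes whose last exons lie opposite the last exons of FTH1, PRDX1 and SQSTM1. They were chosen by their high estimated counts in these samples and by their overlap with a gene known to be highly expressed on the opposite strand, and each is described with that neighbour. This gives 6 of the 34834 genes with a quantified transcript, in 3 pairs, with 68 transcripts between them. Because the counts themselves chose these genes, their levels are given below as a description without a test.

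RNA sequencing was performed on SKOV3 cells, an established human ovarian cancer line. All 6 samples received a pool of siRNA at 50 nM by lipofection, directed against the long non-coding RNA DNM3OS in 3 samples (DNM3OS knockdown) and non-targeting in the other 3 (NT), and every sample is of this 1 line. Total RNA was depleted of ribosomal RNA and made into stranded libraries, and transcripts were quantified with kallisto. The sources do not state whether replicates are separate cultures, so p-values measure the spread between these samples only, and the level of DNM3OS itself was not analysed here, so the knockdown that the labels give was not checked in these values.

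BEST1 encodes bestrophin 1, a calcium-activated chloride channel best known from the retinal pigment epithelium, where inherited changes in it cause macular disease. MMACHC processes vitamin B12 after it enters the cell, and its loss causes the cblC form of combined methylmalonic acidemia and homocystinuria. MRNIP binds the MRN complex of MRE11, RAD50 and NBN, which senses DNA double-strand breaks. The neighbours are housekeeping or stress genes. FTH1 is the heavy chain of ferritin, the iron store of the cell. PRDX1 is a cytosolic peroxiredoxin that reduces hydrogen peroxide, and SQSTM1 (p62) is a receptor that brings ubiquitinated cargo into autophagosomes. All 3 neighbours are known targets of the oxidative stress factor NRF2.

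In each pair the genes run toward one another and share exonic sequence at their 3' ends (GRCh38, GENCODE release 44). BEST1 (ENSG00000167995, plus strand) covers chr11:61950063-61965515 and FTH1 (ENSG00000167996, minus strand) covers chr11:61959718-61967634, and 1267 bases are exonic in both. These include 474 of the 786 coding bases of FTH1 but 36 of the 2217 coding bases of BEST1, so most of the coding sequence of FTH1, but little of that of BEST1, lies in the shared stretch. MMACHC (ENSG00000132763, plus strand) covers chr1:45500300-45513382 and PRDX1 (ENSG00000117450, minus strand) covers chr1:45510914-45542732. They share 501 exonic bases, which hold 86 of the 600 coding bases of PRDX1 and 0 of the 849 coding bases of MMACHC. MRNIP (ENSG00000161010, minus strand) covers chr5:179835133-179862173 and SQSTM1 (ENSG00000161011, plus strand) covers chr5:179806398-179838078. Of their 1582 shared bases, 222 belong to the 1473 coding bases of SQSTM1 and 522 to the 1456 coding bases of MRNIP, so here the first gene has more coding bases in the shared part than its neighbour. MRNIP also shares 108 exonic bases with TBC1D9B on its own strand, and SQSTM1 shares 105 with MGAT4B on the opposite strand.

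The end of a neighbour's coding sequence shows what the shared exons look like on both strands. The last 30 coding bases of PRDX1 (ENST00000424390, chr1:45511329-45511358, minus strand) and of SQSTM1 (ENST00000389805, chr5:179836564-179836593, plus strand) each lie within a single exon of the opposite transcript that held most counts. All lines read 5' to 3' and capitals mark the stop codon of the neighbour, or its reverse complement in the exon of the partner. Both are read from the genome by the annotation. The model of ENST00000424390 in the files has 795 bases against 1296 in the annotation, a gap as long as the 501 bases shared with MMACHC, so the quantified model may lack the stretch printed for PRDX1.
PRDX1 mRNA: agcaaagaatatttctccaagcagaagTGA
MMACHC exon opposite: TCActtctgcttggagaaatattctttgct
SQSTM1 mRNA: cagtattcaaagcatcccccgccgttgTGA
MRNIP exon opposite: TCAcaacggcgggggatgctttgaatactg
The same genomic bases occur in an annotated transcript of either gene, so a read that lies wholly within them matches both genes unless its strand is used. The libraries were stranded, but whether kallisto was run with a strand option is not given in the sources used here. The deposited values are 1 number per transcript, so they show neither the strand nor the position of the reads behind it.

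**Figure D1:**
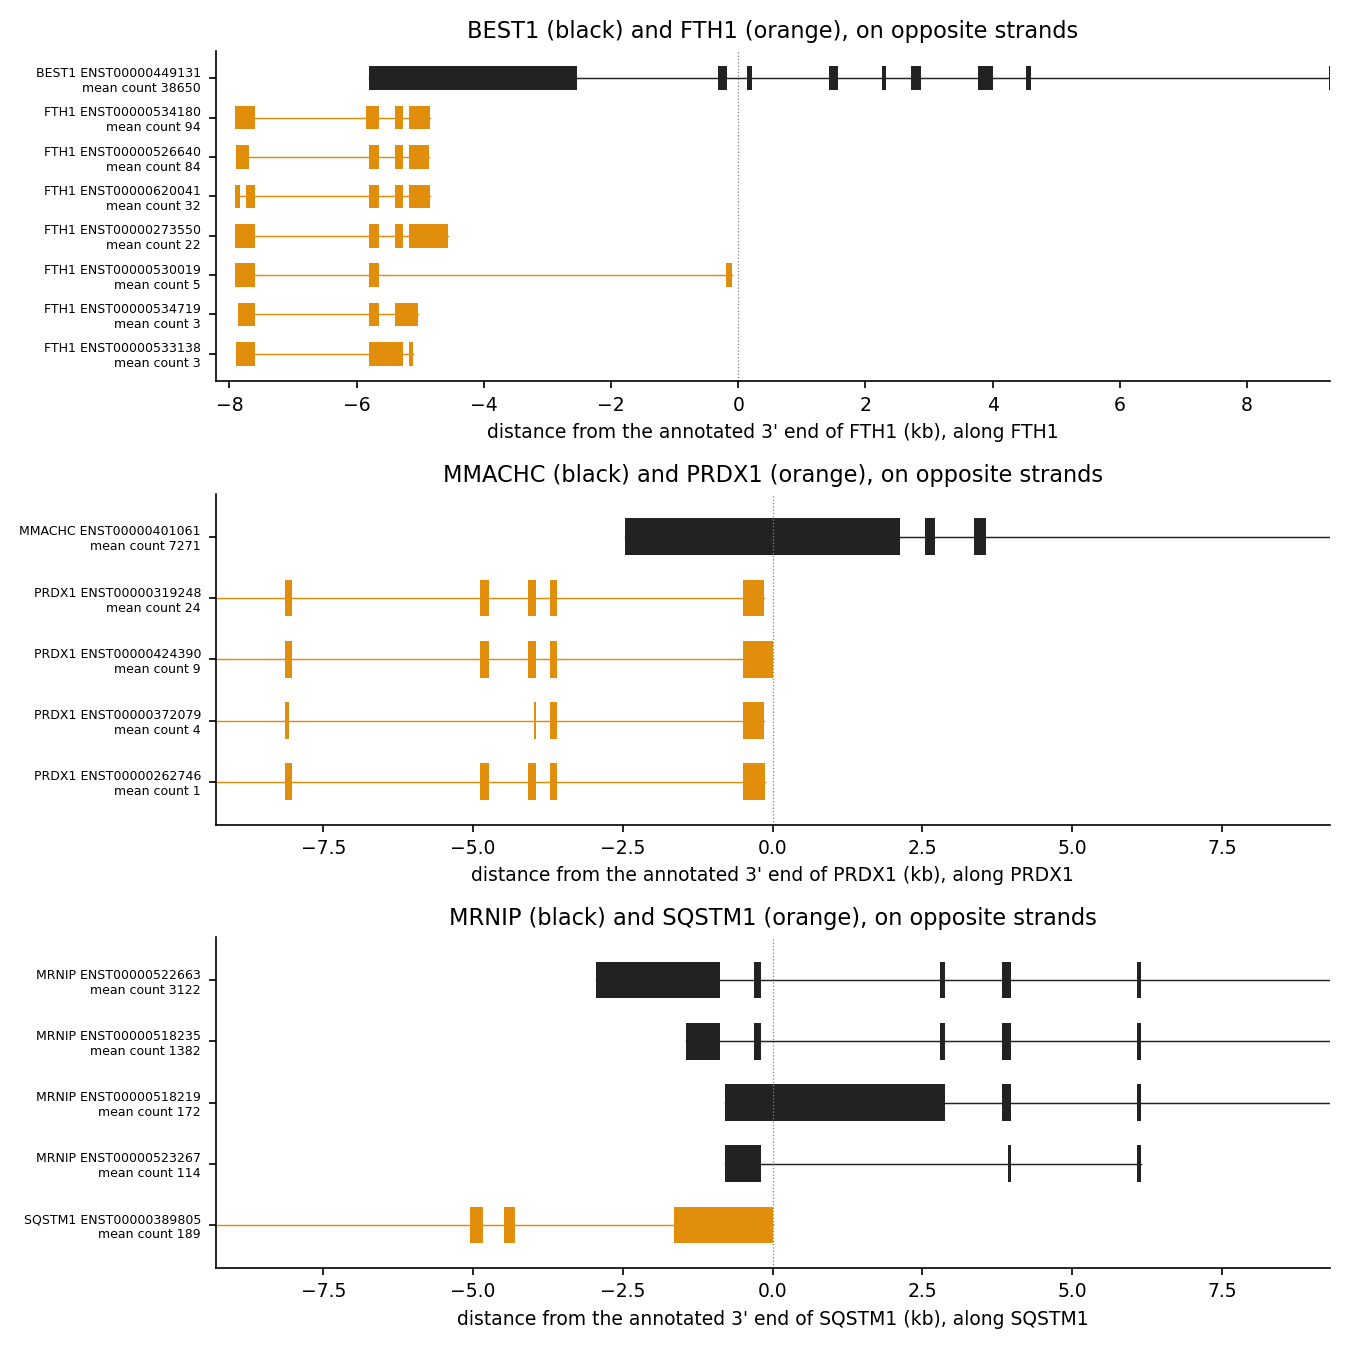
Exons (boxes) of the transcripts with at least 1% of the counts of BEST1, MMACHC and MRNIP (black) and of FTH1, PRDX1 and SQSTM1 (orange), against the distance in kb from the annotated 3' end of the neighbour, with the mean estimated count over 6 samples at the left and the window limited to the 3' ends, so that SQSTM1 transcripts ending further upstream are not drawn. The long last exon of BEST1 transcript ENST00000449131 reaches over the last 3 exons of the FTH1 transcripts with most counts, whereas MMACHC and PRDX1 meet in 1 terminal exon each.

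BEST1 was among the genes with most counts of the whole data set. DNM3OS knockdown replicates 1 to 3 held 40713, 43013 and 26509 estimated counts on it and NT replicates 1 to 3 held 46756, 41172 and 34230, which is 1.70% to 2.70% of the counts on annotated transcripts of a sample. It ranked 5 of 34834 genes by mean counts and 6 by mean TPM, the abundance per transcript length that is comparable between genes of a sample. FTH1, in contrast, had 85, 220 and 143 counts under knockdown and 550, 129 and 331 under NT siRNA. Its rank was 682 by counts and 255 by TPM.

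MMACHC had 5692, 8253 and 7552 counts under knockdown and 7440, 7321 and 7370 under NT siRNA, which placed it at rank 7 by counts and 30 by TPM. Relative to their mean, its NT counts lay closer together than those of any other member. PRDX1 had 22, 42 and 23 counts under knockdown and 82, 19 and 47 under NT siRNA, the lowest counts among the 6 genes (rank 5520 by counts, 3148 by TPM).

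MRNIP had 4262, 5094 and 4533 counts under knockdown and 6093, 4274 and 5002 under NT siRNA (rank 8 by counts, 11 by TPM). SQSTM1 had 205, 254 and 218 counts under knockdown and 267, 209 and 234 under NT siRNA (rank 720 by counts, 1424 by TPM). The high counts of each pair therefore lay on BEST1, MMACHC and MRNIP. FTH1, PRDX1 and SQSTM1 are known as abundant mRNAs. Here FTH1 and SQSTM1 were high among all 34834 genes but far below their partners, and PRDX1 was further down on both scales.

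Per transcript length the order was the same in both groups. Mean TPM was 7539 ± 1692 (SD, n = 3) for BEST1 in the knockdown and 8411 ± 1339 in the NT samples, 2320 ± 458 and 2480 ± 412 for MRNIP, and 1207 ± 352 and 1218 ± 68.1 for MMACHC. These ranges did not overlap over the 6 samples, since MRNIP spanned 1826 to 2945 TPM and MMACHC 802 to 1439 TPM. FTH1 followed with 174 ± 106 TPM in the knockdown and 394 ± 229 TPM in the NT samples. SQSTM1 had 84.2 ± 13.9 and 91.3 ± 7.64 TPM, and PRDX1 37.7 ± 9.17 and 51.8 ± 29.7 TPM. FTH1 and SQSTM1 could not be ordered beyond their spread, since FTH1 (70.1 to 620 TPM) was above SQSTM1 (71.7 to 99.7 TPM) in 5 samples and below it in knockdown replicate 1. PRDX1 (20.5 to 79.4 TPM) was below both in each of the 6 samples, although its range over samples overlapped theirs.

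**Figure D2:**
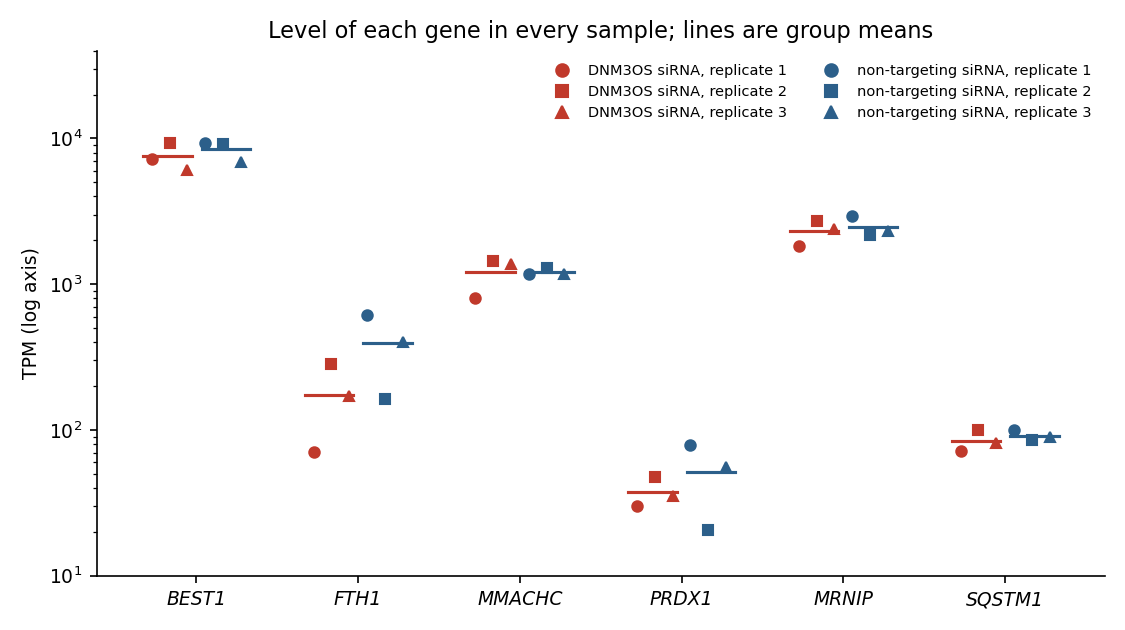
TPM of the 6 genes (log axis) in each of the 3 DNM3OS siRNA samples (red) and 3 non-targeting siRNA samples (blue), with group means as lines. BEST1, MMACHC and MRNIP sit between 802 and 9380 TPM in every sample, above FTH1, PRDX1 and SQSTM1, which sit between 20.5 and 620 TPM.

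Most counts of each highly counted gene fell on 1 or 2 of its transcripts. For BEST1, ENST00000449131 held 99.80% of the counts (26454 to 46687 per sample). This coding transcript of 4267 bases is the BEST1 form with the longest exonic stretch opposite FTH1, all 1267 bases. Of its exonic sequence, 1813 bases occur in no other BEST1 transcript, and 1054 of those lie within FTH1 exons. The next form, the retained intron transcript ENST00000524877, had 49.8 to 97.1 counts and shares 46 bases with FTH1 exons. Another long coding form, ENST00000378043, shares 213 bases with FTH1 in the annotation, where it has 2210 bases against 2740 as quantified. It had 0 estimated counts in every sample. For reads counted directly, 0 allows up to 3 counts per sample or 1.61 to 1.97 CPM (counts scaled to the depth of a sample). This estimate also depends on how kallisto divided reads shared between forms, so that limit may not hold. BEST1 counts thus stood on a single form out of 8 quantified ones, and 4 of the 8 had any counts.

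MMACHC showed the same concentration. All of its counts fell on ENST00000401061, a coding transcript with a long last exon that holds the 501 bases shared with PRDX1. The other 2 quantified forms had 0 counts in every sample, and one of them, ENST00000616135, shares 152 bases with PRDX1. Only 9.92% of the exonic bases of ENST00000401061 lie within PRDX1 exons, against 29.7% of ENST00000449131 within FTH1 exons. The length of ENST00000401061 was 5296 bases in the files and 5049 in the annotation used for the overlaps, so the quantified model differs slightly from the drawn one.

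MRNIP counts were spread over more forms. ENST00000522663, annotated as a target of nonsense-mediated decay, held 64.0% of MRNIP counts (2604 to 3810 per sample) and shares 895 bases with SQSTM1 exons. The coding form ENST00000518235 held 28.3% (1104 to 1877 counts) and shares 697 bases. On the TPM scale the order was reversed, with means of 976 TPM for ENST00000522663 and 1078 TPM for the shorter ENST00000518235. Because all exonic bases of ENST00000518235 occur in other MRNIP forms, its estimated count depends on how kallisto divided shared reads.

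The counts of FTH1 and PRDX1 were split among several short forms whose shares differed between samples. FTH1 counts lay on ENST00000534180 (38.5%), ENST00000526640 (34.7%) and ENST00000620041 (13.2%), none of which has a base of its own. ENST00000526640 had 0.248, 89.7 and 0.000085 counts under knockdown and 173, 59.6 and 184 under NT siRNA, so an estimate near 0 in 2 knockdown samples stood beside one of 89.7 in the other. The coding form ENST00000273550 had 11.4 to 34.0 counts. A further 25 genes named as FTH1 pseudogenes held 150, 48 and 76 counts in all under knockdown and 56, 85 and 46 under NT siRNA. FTH1 itself had 85 to 550. Knockdown replicate 1, lowest for FTH1 at 85 counts, was highest for the pseudogenes. FTH1 and these pseudogenes may share reads, so the FTH1 values are uncertain. The part of such reads in the differences between samples was not tested.

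PRDX1 counts lay on ENST00000319248 (62.3%, 0 to 67.5 counts), ENST00000424390 (23.6%) and ENST00000372079 (11.1%). At 19 to 82 counts for the whole gene, the split among these forms rested on few reads. SQSTM1 was steadier, with 81.6% of its counts on the coding form ENST00000389805 (150 to 212 counts). In the annotation this form holds all 1582 bases shared with MRNIP and has 2840 bases, against 2986 as quantified. ENST00000506690, a form without a defined coding sequence and without bases opposite MRNIP exons, held 11.5%.

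**Figure D3:**
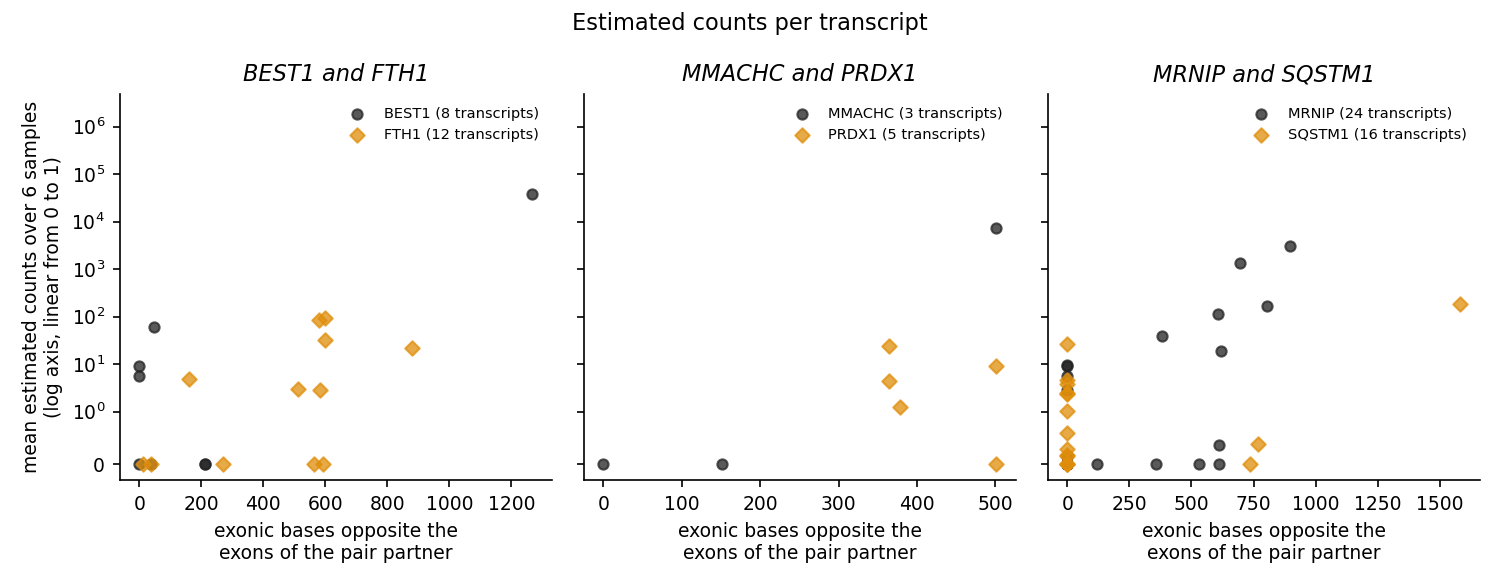
Mean estimated counts over 6 samples for each quantified transcript (log axis, linear below 1) against its exonic bases opposite exons of the pair partner, for the first gene (black circles) and the neighbour (orange diamonds). The forms with the highest counts, BEST1 ENST00000449131 and MMACHC ENST00000401061, are also those with the longest opposite stretch of their gene (1267 and 501 bases), and MRNIP ENST00000522663 has 895 bases.

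Counts fell almost wholly on transcripts that overlap the pair partner. The share was 99.96% for BEST1 (lowest sample 99.92%), where 5 of 8 forms overlap FTH1, and 100% for MMACHC, where 2 of 3 forms overlap PRDX1. For MRNIP, where 11 of 24 forms overlap SQSTM1, it was 99.2% ± 0.207 (SD, n = 3) in the knockdown and 99.6% ± 0.0593 in the NT samples. All 3 knockdown values of MRNIP lay below all 3 NT values, but the rest of the gene held only 13.5 to 42.8 counts per sample. On those counts alone the log2 fold change of MRNIP was 0.82 (edgeR exact test, adjusted p = 1), of the opposite sign to that of the whole gene. This separation was not tested, and no share of the other genes was compared between groups. All forms of FTH1 and PRDX1 overlap their partners, so their shares of 100% follow from the annotation. For ENST00000424390, with 23.6% of PRDX1 counts, the shorter model in the files means that this may not hold for the sequence that was quantified. SQSTM1 had 80.8% ± 6.88 in the knockdown and 82.4% ± 2.91 in the NT samples, on 3 of its 16 forms.

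Most other genes with an opposite partner had lower shares than BEST1, MMACHC and MRNIP. Of 3174 coding genes with exons opposite exons of another coding gene, 2208 had forms both with and without such an overlap and a mean of at least 10 counts. Their median share of counts on overlapping forms was 73.5% (quartiles 30.95% and 96.72%), while a median of 33.3% of their forms overlap. Shares above 90% were found in 802 of them (36.3%). A higher share than in BEST1 was found in 150 of them (6.79%), than in MRNIP in 275 (12.5%) and than in SQSTM1 in 900 (40.8%), here counting overlap with any coding gene. No gene can exceed the 100% of MMACHC, and genes that tie with it were not counted.

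Within each pair the first gene exceeded its neighbour in every sample. BEST1 had 85.0 to 476 times the counts of FTH1 and 14.9 to 103 times its TPM (median 34.4). MMACHC had 91.1 to 381 times the counts of PRDX1 and 14.8 to 63.4 times its TPM (median 28.4). MRNIP had 20.1 to 22.8 times the counts of SQSTM1 and 25.5 to 29.6 times its TPM (median 26.8). From the mean TPM over 6 samples the ratios were 28.1, 27.1 and 27.3, close to each other although the count ratios differed. Among 1170 opposite-strand coding pairs with at least 10 mean counts in both genes, the median absolute log2 ratio of TPM was 1.54 and the 90th percentile 3.86. The 3 pairs had 4.81, 4.76 and 4.77 and took places 46, 50 and 48, so 45 pairs were more unequal than any of them. High counts of the first gene were part of the choice of these pairs, so their places are a description too.

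The ratio was steady across samples in 1 pair only. For MRNIP to SQSTM1 the log2 count ratio was 4.37, 4.32 and 4.38 under knockdown and 4.51, 4.35 and 4.41 under NT siRNA. For BEST1 to FTH1 it was 8.89, 7.61 and 7.53 against 6.41, 8.32 and 6.69, and for MMACHC to PRDX1 7.96, 7.62 and 8.33 against 6.50, 8.54 and 7.26. NT replicate 1 had the lowest ratio in both of these pairs, where FTH1 and PRDX1 were highest. Knockdown minus NT, the difference was 0.87 (SE 0.74) for BEST1 to FTH1 (exact two-sided permutation p = 0.3, adjusted over 3 pairs 0.45), with all 3 knockdown values above NT replicates 1 and 3 and 2 of them below NT replicate 2. It was 0.53 (SE 0.63) for MMACHC to PRDX1 (exact permutation p = 0.5, adjusted 0.5) and -0.07 (SE 0.05) for MRNIP to SQSTM1 (exact permutation p = 0.3, adjusted 0.45). The last changed sign with TPM (0.0220). It was 0.90 (exact permutation p = 0.1) when the MRNIP transcripts that overlap SQSTM1 were left out and SQSTM1 was kept whole. That value compares the 13.5 to 42.8 counts left on MRNIP with all counts of SQSTM1. None of the 3 differences exceeded the spread between replicates, the groups overlapped in each, and 3 against 3 samples cannot give a permutation p below 0.1.

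**Figure D4:**
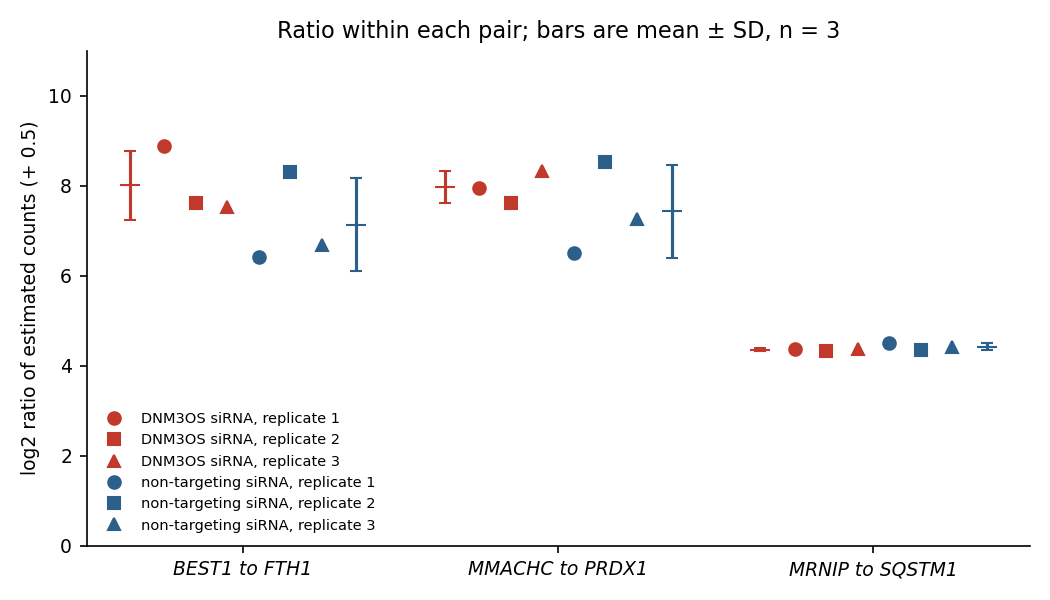
Log2 ratio of estimated counts (plus 0.5) of BEST1 to FTH1, MMACHC to PRDX1 and MRNIP to SQSTM1 in each DNM3OS siRNA sample (red) and non-targeting siRNA sample (blue), with mean ± SD of 3 samples as bars. MRNIP to SQSTM1 stays between 4.32 and 4.51, while the other pairs range from 6.41 to 8.89 and from 6.50 to 8.54, with overlapping groups.

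DNM3OS knockdown was compared with NT by the edgeR exact test over all 11814 genes that passed the filter on low counts, among which all 6 members were. A gene counted as changed at 2-fold and an adjusted p below 0.05, which 0.00846% of tested genes met as lower and 0.0% as higher. Of the 6 members, 0 met it, and 0 did in edgeR's quasi-likelihood test or DESeq2. At an unadjusted p below 0.05 the exact test had 1 member, FTH1, where 2.92% of all tested genes passed. The log2 fold changes below compare CPM scaled by TMM, and in bulk RNA a lower level per cell cannot be told apart from fewer cells that express a gene.

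FTH1 had the largest log2 fold change of the 6 genes in size. Its CPM were 39.5, 149 and 100 under knockdown and 313, 84.5 and 195 under NT siRNA, so NT replicate 2 lay below 2 knockdown samples and the groups overlapped. The log2 fold change was -1.04 (SE 0.78), with an unadjusted p of 0.0419 and an adjusted p of 1 in the edgeR exact test. The adjusted p was between 0.298 (without NT replicate 2) and 1 over the alternative settings of the edgeR and DESeq2 tests. PRDX1 had 10.2, 28.4 and 16.1 CPM under knockdown and 46.7, 12.4 and 27.7 CPM under NT siRNA. Its samples were ordered much as those of FTH1, and the log2 fold change was -0.68 (SE 0.66; edgeR exact test, adjusted p = 1). These sizes rested on single samples. Without NT replicate 1, which was highest for both genes, the log2 fold changes were -0.55 for FTH1 and -0.16 for PRDX1, and without knockdown replicate 1, lowest for both, they were -0.65 and -0.37. Without knockdown replicate 2 they were -1.51 and -1.15, and without NT replicate 2 they were -1.40 and -1.04.

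SQSTM1, the other NRF2 target, differed little between the groups. It had 95.4, 172 and 153 CPM under knockdown and 152, 137 and 138 CPM under NT siRNA. The log2 fold change was -0.03 (SE 0.26; edgeR exact test, adjusted p = 1).

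The 3 highly counted genes also showed no difference beyond their spread. The mean CPM of BEST1 was 22200 ± 5938 (SD, n = 3) under knockdown and 24570 ± 3847 under NT siRNA, a log2 fold change of -0.15 (SE 0.25; edgeR exact test, adjusted p = 1). MMACHC had 4507 ± 1616 and 4455 ± 296 CPM, a log2 fold change of 0.02 (SE 0.35; edgeR exact test, adjusted p = 1). MRNIP had 2868 ± 778 and 3070 ± 354 CPM, a log2 fold change of -0.10 (SE 0.27; edgeR exact test, adjusted p = 1). In all of these the groups overlapped, and knockdown replicate 1 had the lowest CPM for 5 of the 6 genes, BEST1 being the exception. Without that sample the log2 fold changes of MRNIP and SQSTM1 were 0.12 and 0.20, of the opposite sign.

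Of the 68 transcripts, 18 passed the filter for the same test over 15767 transcripts. In that test 0.159% of transcripts were lower and 0.0951% higher, and 0 of the 18 were in either set. The unadjusted p was at least 0.262 in all 18, and edgeR's quasi-likelihood test made 0 calls among all transcripts. The leading forms had log2 fold changes close to those of their genes, -0.19 for ENST00000449131, -0.02 for ENST00000401061 and -0.17 for ENST00000522663. The forms of FTH1 differed most in size, at -2.06 for ENST00000526640 and for ENST00000620041, on estimates that ranged from near 0 to 184 and to 140 counts.

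FTH1 and PRDX1 varied far more between samples than the rest. The highest sample exceeded the lowest 7.92-fold for FTH1 and 4.56-fold for PRDX1 in CPM, against 2.11-fold for MMACHC, 1.80-fold for SQSTM1, 1.75-fold for MRNIP and 1.56-fold for BEST1. The SD of log2 CPM over the 6 samples was larger in FTH1 than in 97.8% of tested genes, and larger in PRDX1 than in 94.2% of them. For the other members that percentile was 62.5 for MMACHC, 42.3 for MRNIP, 39.6 for BEST1 and 39.3 for SQSTM1.

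The order of samples was similar to that of the ribosomal protein genes. These 85 genes held 0.232% of the counts in knockdown replicate 1, 0.32% in NT replicate 2, 0.383% and 0.396% in knockdown replicates 2 and 3, and 0.523% and 0.541% in NT replicates 3 and 1. FTH1 in CPM had the same lowest and highest samples and the same order apart from an exchange of knockdown replicates 2 and 3. The ribosomal protein share thus moved with FTH1, and its part in the difference between the groups was not tested.

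**Figure D5:**
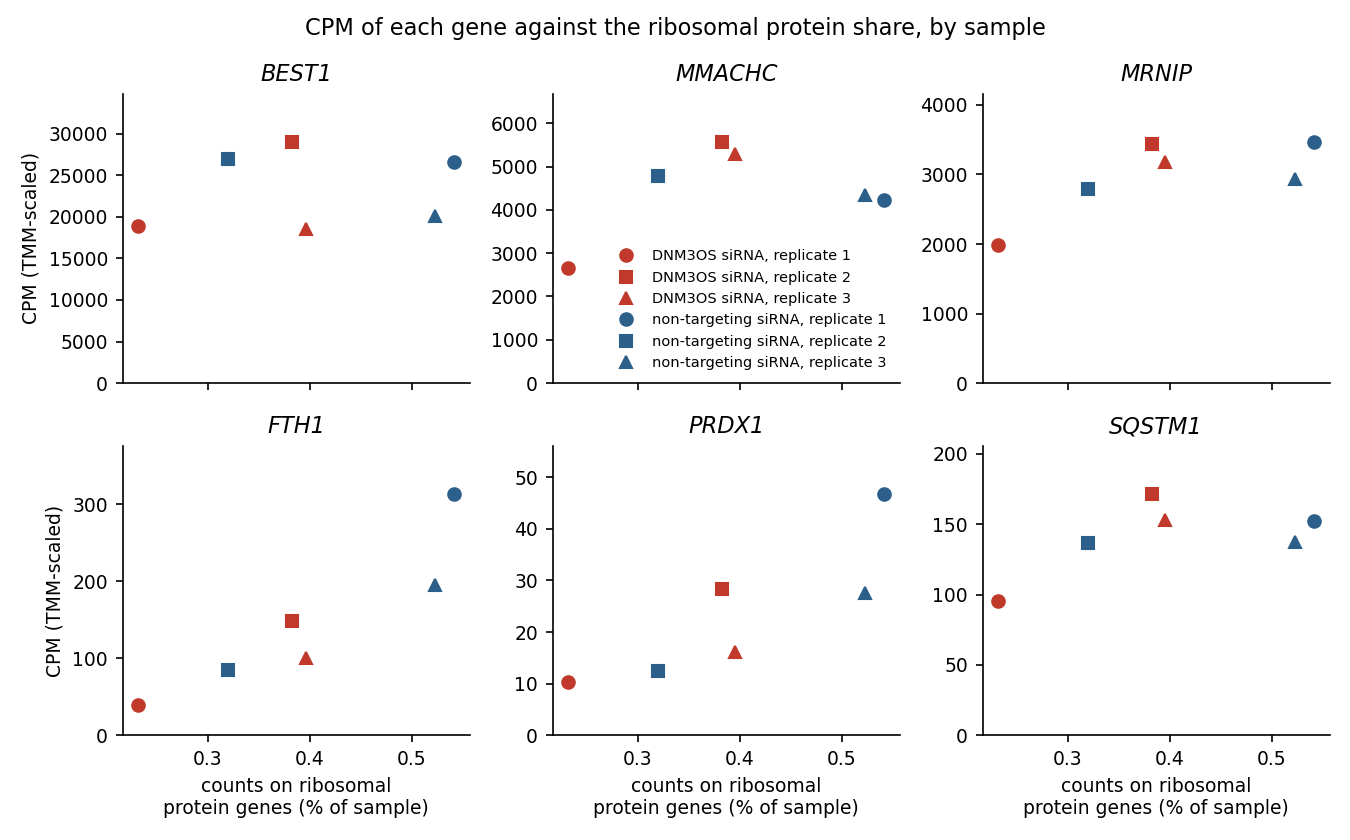
CPM of BEST1, MMACHC and MRNIP (top) and of FTH1, PRDX1 and SQSTM1 (bottom) against the percentage of counts on 85 ribosomal protein genes, 1 point per sample, with DNM3OS siRNA in red and non-targeting siRNA in blue. FTH1 and PRDX1 are high in the samples with the largest share, NT replicates 1 and 3, whereas BEST1 has 26950 CPM at 0.32% and 26630 CPM at 0.541%.

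Across the 6 samples, members of different pairs could be more alike than members of the same pair. Pearson's r of log2 CPM was 0.448 between BEST1 and FTH1 (permutation p = 0.389) and 0.390 between MMACHC and PRDX1 (permutation p = 0.492), the latter being -0.795 without the 2 samples farthest from the median. Between MRNIP and SQSTM1 it was 0.976 (exact permutation p = 0.0194, adjusted over 9 relations 0.0875), with Spearman's rho of 0.829 (exact permutation p = 0.0583, adjusted 0.263), and 0.976 again without the 2 farthest samples. Between the neighbours FTH1 and PRDX1, on different chromosomes, it was 0.960 (exact permutation p = 0.00556, adjusted 0.05) with rho of 0.943 (exact permutation p = 0.0167, adjusted 0.15), and 0.946 without the 2 farthest samples. None of the 9 relations had an adjusted p below 0.05. The 6 points of each relation share library depth and the same scaling factors, of which that of knockdown replicate 1 (1.18) was the highest.

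As a description, the genes most like each member over the 6 samples were sought among the other 11813 tested genes. For BEST1 they were MCRIP2 (r = 0.988), FUT8 and PGM3, and FTH1 took place 1882. For FTH1 they were GNAI2 (r = 0.995), RHOA and KIF14, with BEST1 at place 3917. The partners of MMACHC and PRDX1 were as far from the top of each other's lists. MMACHC was most like ZBTB45 (r = 0.997) and TMEM8B and had PRDX1 at place 3801, and PRDX1 was most like FLT4 (r = 0.999), RLF and GPBP1 and had MMACHC at place 4002. Only MRNIP and SQSTM1 stood near each other, SQSTM1 at place 35 for MRNIP and MRNIP at place 36 for SQSTM1. The leading genes were OCIAD1 (r = 0.994), NR1D2 and DYNC1LI2 for MRNIP, and MOCS2 (r = 0.996), RNF34 and NQO2 for SQSTM1.

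The other genes of the pathways to which the members belong had far fewer counts than BEST1, MMACHC and MRNIP, which were chosen for high counts. No gene of the following lists was changed in the knockdown by the edgeR exact test (0 lower and 0 higher in each, and 0 also in the quasi-likelihood test and DESeq2), and the median log2 fold change over all tested genes was 0.00. Of 14 genes for ferritin and cellular iron, 10 were tested, with a median log2 fold change of -0.28. Those with most counts were NCOA4, the receptor for autophagy of ferritin (273 to 396 counts), and FTH1. At an unadjusted p below 0.05 there were 2, FTH1 and ACO1, where 2.92% of all tested genes passed. ACO1 is the cytosolic aconitase that also binds iron-responsive elements. It had 419, 90 and 246 counts in the knockdown and 146, 71 and 63 in the NT samples (edgeR exact test, unadjusted p = 0.00183, adjusted p = 1). The ACO1 groups overlapped, and knockdown replicate 1 was the highest sample. FTL, the ferritin light chain, singled out after its values were seen, had 0, 46 and 20 counts in the knockdown and 88, 28 and 57 in the NT samples, so knockdown replicate 1 and NT replicate 1 were its extremes as for FTH1.

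Of 15 genes of the NRF2 pathway, 11 were tested, 10 of them with a lower mean in the knockdown and a median log2 fold change of -0.34. FTH1 and SQSTM1 had most counts in this list and FTH1 alone had an unadjusted p below 0.05. Of 13 peroxiredoxin and thioredoxin genes, 9 were tested, with a median of -0.58 and 0 at an unadjusted p below 0.05. Those with most counts were the thioredoxin reductases TXNRD2 (48 to 100 counts) and TXNRD1 (40 to 99 counts). The groups did not overlap in 2 of the tested genes, PRDX3, lower in the knockdown (log2 fold change -0.58, SE 0.19), and TXNRD2, higher (0.45, SE 0.14), where 7.97% of all tested genes did not overlap in either direction. Of 12 selective autophagy genes, 10 were tested, with a median of -0.01 and 0 at an unadjusted p below 0.05. SQSTM1 and its relative NBR1 (72 to 128 counts) had most counts there.

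The relatives of BEST1 had few counts. BEST2 had 11 to 34 counts, BEST3 7 to 25 and BEST4 8 to 21, against at least 26509 for BEST1. The BEST2 groups did not overlap, with 34, 18 and 24 counts in the knockdown and 17, 11 and 16 in the NT samples (log2 fold change 0.76, SE 0.18; edgeR exact test, unadjusted p = 0.0377, adjusted p = 1), and the median of the 4 bestrophins was -0.11. Of 11 genes for cobalamin handling, 8 were tested, with a median of -0.05 and 0 at an unadjusted p below 0.05. After MMACHC, MMAB had most counts (33 to 65), and MMAA had 0 in every sample. MTR, the methionine synthase, was the 1 tested gene whose groups did not overlap (log2 fold change -0.49, SE 0.17). BEST2 and MTR stand beside 7.97% of all tested genes whose groups did not overlap in either direction. An unadjusted p below 0.05 in the edgeR exact test, as for BEST2, was found in 2.92% of all tested genes. Of 7 genes for the MRN complex and its partners, 6 were tested, with a median of -0.12 and 0 at an unadjusted p below 0.05. ATM, the kinase activated by the complex, had 176 to 318 counts against 4262 to 6093 for MRNIP, and the complex members MRE11, RAD50 and NBN had 51 to 118, 52 to 87 and 66 to 119. BEST1, MMACHC and MRNIP stood apart in counts from all other genes of these lists, which follows from their choice by high counts.

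Markers of retinal pigment epithelium, where BEST1 is best known, ranged from 0 counts to levels like those of the pair neighbours. Of 10 such genes, OTX2 and DCT had 0 counts in every sample and RLBP1 at most 3, while RPE65 had 41 to 196 and SERPINF1 57 to 105 counts. The highest mean levels in this list were 101 TPM for SERPINF1 and 53.5 TPM for MITF. The list summed to 113 to 208 CPM in the knockdown and 94.0 to 134 CPM in the NT samples, with 5 genes tested, a median log2 fold change of 0.35 and 0 at an unadjusted p below 0.05. Of 12 epithelial and ovarian carcinoma markers, KRT8 had 1195 to 2566 counts and ERBB2 311 to 872, whereas MUC16 had at most 2 and WT1 at most 4. This list summed to 1024 to 2323 CPM in the knockdown and 1178 to 1796 CPM in the NT samples (8 tested, median log2 fold change -0.12, 0 at an unadjusted p below 0.05). Of 7 leukocyte and blood markers, CD14 of monocytes and HBB of red cells had 0 counts, PTPRC 91 to 148 and CD68 40 to 67, and the list summed to 120 to 139 CPM in the knockdown and 110 to 125 CPM in the NT samples (4 tested, median log2 fold change 0.06, 0 at an unadjusted p below 0.05).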

How the data were processed

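The authors quantified paired reads with kallisto 0.43.0 against GRCh38 transcripts and deposited, per transcript, an estimated count without normalization and a TPM. Of 173259 transcripts, 155518 were matched by identifier to GENCODE release 44, and 83.6% of these had the same length there. The others held 4.79% to 6.38% of counts and were left out. Samples held 1523156 to 1868461 counts on annotated transcripts, so 3 counts equal 1.61 to 1.97 CPM. Estimated counts were summed per gene, rounded, filtered with filterByExpr, scaled by TMM and compared with the edgeR 4.0.16 exact test (R 4.3.3) with Benjamini-Hochberg adjustment. Each SE of a log2 fold change was computed from the sample SDs of log2 CPM, with a prior count of 2. The SEs of the pair ratio differences came from the sample SDs of the log2 count ratios. Exonic overlaps with opposite-strand genes were at least 1 base (bedtools 2.31.1). Pair ratios used a pseudocount of 0.5 and exact permutation (scipy 1.17.1).

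Named were the 6 members, their 3 most alike genes, transcripts with at least 10% of a member's counts, and in each list the called genes or else the 2 with most counts. Members and lists were chosen with earlier results of these data known. Genes outside this rule (FTL, ACO1, PRDX3, MTR, BEST3, BEST4, MRE11, RAD50, NBN and some markers and transcripts) were named after their values were seen. Some items that this rule would name are not reported here. On counts simulated for the gene comparison (11814 genes), the test recovered 100 of 100 genes changed by 2 on the log2 scale and 67 of 100 changed by 1, with 22 other calls. For the 15767 transcripts it recovered 98 of 100 and 29 of 100, with 46 other calls. The changed genes and transcripts were drawn from those with a mean above 100 counts. Recovery needed the right sign and an adjusted p below 0.05, without the 2-fold threshold. The rates therefore do not cover features with fewer counts, such as PRDX1. Nor do they cover variation shared by many genes of a sample, since counts were drawn independently for each gene or transcript. As alternatives, the quasi-likelihood test of edgeR was run without and with the replicate number, beside DESeq2 1.42.0, RLE scaling, other filters, length-scaled TPM counts, other pseudocounts and overlap minimums, leaving out transcripts that overlap the partner, and leaving out each sample.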

Additional observations from a re-analysis of the deposited data

How the results depend on the processing

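In all settings tried, 0 of the 6 members passed the threshold. The call count of genes lower in the knockdown (1) became 0 with the quasi-likelihood test, with or without the replicate block, and with DESeq2, 2 without a filter or at 1 CPM, 4 (and 2 higher) with length-scaled TPM counts, and 0 to 3 (0 to 1 higher) when single samples were left out. Transcripts called lower (25) and higher (15) became 0 and 0 with the quasi-likelihood test and with the replicate block, and 31 to 118 and 22 to 37 when single samples were left out. The causes were not tested. Without transcripts that overlap the partner, the log2 fold changes became 0.12 for BEST1, 0.82 for MRNIP (adjusted p = 1 in the edgeR exact test) and 0.0116 for SQSTM1, while FTH1, MMACHC and PRDX1 had no counts left. With the replicate block that of MMACHC became -0.0546. Leaving out single samples gave -0.39 to -0.03 for BEST1, -0.17 to 0.30 for MMACHC, -0.25 to 0.12 for MRNIP and -0.21 to 0.20 for SQSTM1. The pair ratio difference of MRNIP to SQSTM1 became 0.0220 from TPM. Without the MRNIP transcripts that overlap SQSTM1, but with SQSTM1 kept whole, it became 0.90, at the smallest permutation p possible of 0.1. Leaving out single samples gave -0.10 to -0.02 for this pair, with 0.43 to 1.46 for BEST1 to FTH1 and 0.07 to 1.09 for MMACHC to PRDX1. As differences within replicate numbers (replicate block) the 3 pair ratios had exact permutation p of 0.5, 0.5 and 0.25. Shares on overlapping forms moved to 99.86% (TPM) and 99.8% (at least 100 or 500 bases) for BEST1, 97.84% (500 bases) for FTH1, 27.59% (500 bases) for PRDX1, 98.13% (TPM) and 98.63% (500 bases) for MRNIP and 64.83% (TPM) for SQSTM1. The 27.59% of PRDX1 rests on ENST00000424390, whose shorter quantified model may lack the shared bases. Deviations of same-numbered samples from their group means correlated at -0.40, -0.34 and 0.23, and knockdown replicate 1 correlated best with NT replicate 2 (0.53). These correlations cannot show whether same-numbered samples were set up together. At 19 to 82 counts, the depth limits what can be said of PRDX1 and its forms.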
